A study of Mus musculus with 12 samples.

Results

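BATF and the other factors of the AP-1 family were examined as 10 genes, *Batf*, *Batf3*, *Jun*, *Junb*, *Jund*, *Fos*, *Fosb*, *Fosl1*, *Fosl2* and *Jdp2*, chosen by symbol and read by their Ensembl identifiers among the 55536 features of the count table. AP-1 factors are basic leucine zipper (bZIP) proteins that bind DNA as dimers. *Jun* proteins pair with themselves or with *Fos* proteins to form activating dimers, whereas BATF and BATF3 lack a transactivation domain of their own and work as dimers with *Jun* proteins, often next to IRF4 or IRF8 on composite DNA elements. In B cells BATF is known for its requirement in class switch recombination, and JDP2 is known as a repressor that can occupy AP-1 and cyclic AMP response elements.

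The RNA came from B cells of the spleen of 3 control mice and 3 Pdap1-deficient mice (homozygous for a conditional *Pdap1* allele, labelled PDAP1 KO), all C57BL/6, each cultured for 48 h either with LPS and IL-4, which drives switching to IgG1, or with LPS, BAFF and TGFβ, which drives switching to IgG2b. All 6 mice carried 1 allele that expresses Cre in B cells, so that Cre was present in control cells too. The conditional *Pdap1* allele has LoxP sites around exon 2, and the ages of the mice are not given by library in the sources used here. The 12 libraries form 4 groups of 3. A mouse gave 1 library to each stimulation, hence the comparisons of stimulations are within the same animals, whereas the genotypes are different animals that share only the numbers 1 to 3.

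Libraries with LPS-IL-4 held 9386667 to 15869143 counts each, those with LPS-BAFF-TGFβ 4579793 to 69500640 counts, and the deepest was that of control mouse 1 in the latter. With LPS-IL-4, *Pdap1* fell to 28.5% of its mean in control cells (edgeR adjusted p = 3.52e-05) and in the other stimulation it stood at 19.9% (adjusted p = 0.0929), with no overlap between the genotypes in either stimulation. With LPS-BAFF-TGFβ the edgeR test thus did not pass for the deleted gene itself, while DESeq2 did (adjusted p = 1.96e-14). These counts cover the whole gene, and reads outside exon 2 are not removed by the deletion. The labels name CH12, a B lymphoma line, as the cell line of the samples, while the study describes primary splenic B cells. The B cell markers *Cd79a*, *Cd79b*, *Ms4a1*, *Pax5* and *Ebf1* were detected in every library. Myeloid markers set 1 animal apart: the summed level of the 8 genes was 317 counts per 1000000 (CPM) in the LPS-IL-4 library and 550 CPM in the other library of Pdap1-deficient mouse 2, 33.7 and 79.0 CPM in Pdap1-deficient mouse 3, and between 5.22 and 24.8 CPM in the other 8 libraries. *Mpo*, one of the 8, had at most 4 counts in any library. The summed level of 7 T cell markers was also highest in the libraries of Pdap1-deficient mouse 2, the higher of them at 24.9 CPM, against 1.22 to 10.4 CPM in the other 10. That of 6 erythroid markers reached 23.7 CPM and was higher in each of the 4 libraries of Pdap1-deficient mice 2 and 3 than in those of the other mice, at 8.18 to 11.3 CPM.

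Levels are given as CPM of the library total scaled by TMM over the 12 libraries. Fold changes and adjusted p values (Benjamini-Hochberg over all genes tested) are from the quasi-likelihood F test of edgeR on the counts, run within each comparison after removal of genes with low counts, and calls are made at an adjusted p under 0.05. Of the 10 genes, 5 (*Batf*, *Jun*, *Junb*, *Fosl2* and *Jdp2*) had counts high enough to be tested in both genotype comparisons. *Batf3*, *Jund*, *Fos*, *Fosb* and *Fosl1* summed to between 1 and 73 counts over the 12 libraries and fell below the filter in each comparison. In bulk RNA, fewer cells that express a gene and less RNA per cell cannot be told apart.

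*Batf*, *Jdp2* and *Fos* lie near each other on chromosome 12, all on the + strand. In GRCm38 coordinates *Fos* is at chr12:85473890-85477273, *Jdp2* at chr12:85599027-85639878 and *Batf* at chr12:85686669-85709087, with 122 kb between *Fos* and *Jdp2* and 46.8 kb between *Jdp2* and *Batf*. The other members are elsewhere: *Jun* at chr4:95049034-95052222, *Junb* at chr8:84974484-84978718, *Jund* at chr8:70698949-70700616, *Fosb* at chr7:19302696-19310051, *Fosl1* at chr19:5447547-5455946, *Fosl2* at chr5:32135801-32157842 and *Batf3* at chr1:191097847-191108945. The 250 bases before the annotated start are printed for *Batf*, *Jdp2* and *Jun*, the 3 members that passed the edgeR test in any comparison fitted with all its libraries and no block (GRCm38.p6, from RefSeq, 5′ to 3′ on the strand of the gene). Of the 3 *Jdp2* windows, only the 1 with a match is printed. Capitals mark a match to 1 of 4 bZIP elements that were searched on both strands: TGANTCA (the AP-1 element), TGACGTCA (the cyclic AMP response element), TGACATCA (an element of the *Jun* type) and TGATGCAA (a composite of C/EBP and ATF half-sites).
*Batf*, chr12:85686470-85686719, + strand: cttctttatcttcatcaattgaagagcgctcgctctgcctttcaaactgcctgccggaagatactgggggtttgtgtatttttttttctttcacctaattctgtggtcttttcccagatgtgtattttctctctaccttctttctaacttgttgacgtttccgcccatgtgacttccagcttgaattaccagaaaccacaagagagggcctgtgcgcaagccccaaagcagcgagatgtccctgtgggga
*Jdp2*, second of 3 annotated starts, chr12:85599166-85599415, + strand: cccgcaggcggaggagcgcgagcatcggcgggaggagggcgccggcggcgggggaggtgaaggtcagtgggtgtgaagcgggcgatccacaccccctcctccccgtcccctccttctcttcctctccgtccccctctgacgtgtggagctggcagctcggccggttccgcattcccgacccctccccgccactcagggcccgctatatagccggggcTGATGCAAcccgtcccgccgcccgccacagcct
*Jun*, chr4:95052223-95052472, − strand: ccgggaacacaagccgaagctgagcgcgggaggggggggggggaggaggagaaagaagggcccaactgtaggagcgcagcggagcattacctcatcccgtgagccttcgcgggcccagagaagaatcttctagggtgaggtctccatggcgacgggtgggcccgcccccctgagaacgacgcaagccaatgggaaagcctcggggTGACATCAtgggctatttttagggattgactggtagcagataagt
None of the 4 elements was found in the *Batf* window. The *Jun* window held TGACATCA from 45 bases before the start, and the window of the second *Jdp2* start held TGATGCAA from 33 bases before the start, and neither match overlapped another. Over all 32851 promoter windows of this length, TGANTCA was found in 6.75%, TGACGTCA in 1.55%, TGACATCA in 2.93% and TGATGCAA in 0.791%. These shares are per window and element, whereas the windows of several members were searched for all 4 elements. No match was found in the windows of the other 2 *Jdp2* starts or of *Batf3*, *Junb*, *Jund*, *Fos*, *Fosb* and *Fosl2*. These matches are descriptions of the sequence and no measure of binding.

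To compare the abundance of the family members, CPM was divided by the exon length of each gene. On this scale *Batf* had the highest level of the members in all 12 libraries, *Jund* aside, whose level is uncertain for the reason given with its counts. In control cells with LPS-IL-4 its mean level was 84.6 ± 4.11 CPM per kb (SD, n = 3), followed by *Junb* at 23.6 ± 7.48 and *Jun* at 6.94 ± 1.04 CPM per kb. In control cells with LPS-BAFF-TGFβ *Batf* was at 107 ± 21.4, *Junb* at 23.8 ± 12.6 and *Jun* at 2.78 ± 1.14 CPM per kb. The groups of 3 libraries did not overlap between these neighbours in the order within either control group. *Jdp2* came next, at 0.444 ± 0.0907 and 0.829 ± 0.309 CPM per kb in the 2 control groups and at 2.78 ± 0.387 and 3.80 ± 1.13 CPM per kb in the Pdap1-deficient groups, LPS-IL-4 being given first. In Pdap1-deficient cells with LPS-BAFF-TGFβ the libraries of *Jdp2* (2.69 to 4.96 CPM per kb) and *Jun* (1.73 to 3.88 CPM per kb) overlapped, so that their order does not hold beyond the spread. *Batf3*, *Jund*, *Fos*, *Fosb*, *Fosl1* and *Fosl2* each had a mean below 0.5 CPM per kb in every group.

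**Figure D1:**
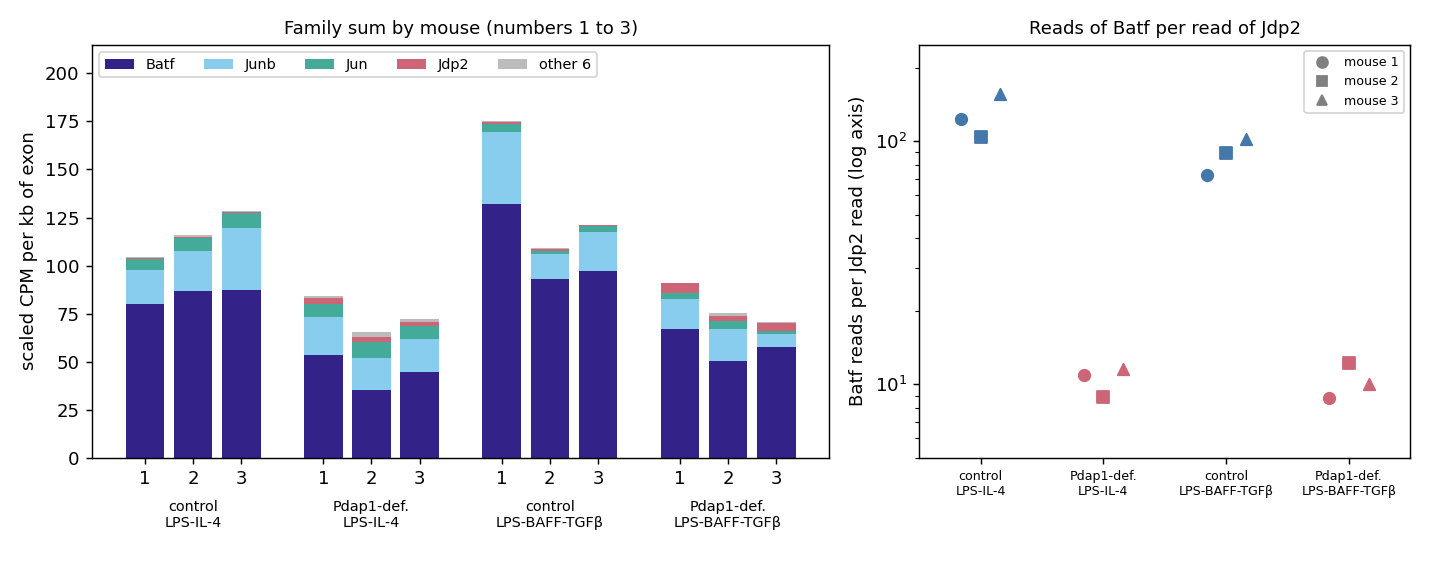
Left, level of the AP-1 family in each of the 12 libraries as stacked bars (CPM per kb of exon, linear axis from 0; the 6 low members are summed as other). Right, reads of *Batf* per read of *Jdp2* in each library (log axis; points are libraries, symbols the mouse). *Batf* makes up most of each bar, and the Pdap1-deficient libraries have between 8.83 and 12.2 *Batf* reads per *Jdp2* read against 72.9 to 156 in the control libraries.

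The share of *Batf* in the summed family level was between 68.2% and 76.3% in control cells and between 54.3% and 63.6% in Pdap1-deficient cells with LPS-IL-4. These groups did not overlap, and the means were 73.1 ± 4.29% and 59.8 ± 4.90% (SD, n = 3; 2-sided exact permutation test, p = 0.1, the smallest that 3 against 3 libraries allow). With LPS-BAFF-TGFβ the share was 80.2 ± 5.06% in control and 74.0 ± 7.76% in Pdap1-deficient cells, and the libraries overlapped (exact permutation p = 0.400). The family sum itself was 116 ± 11.5 CPM per kb in control and 73.9 ± 9.61 CPM per kb in Pdap1-deficient cells with LPS-IL-4. With LPS-BAFF-TGFβ it was 135 ± 35.2 and 78.9 ± 10.7 CPM per kb, and the exact p was 0.1 in both stimulations. The sum follows *Batf*, its largest term, and is no separate evidence.

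The first comparison asked how the family differs between genotypes in cells switching to IgG1. With LPS-IL-4, *Batf* fell to about 52.6% of its control level and *Jdp2* rose 6.18-fold in Pdap1-deficient cells, whereas *Jun* and *Junb* did not pass the test. Of the 5 members tested, 1 was called higher and 1 lower, where 4.92% of the 15074 genes tested were called (2.79% higher and 2.12% lower). The median log2 fold change was 0.04 over the 5 members and 0.02 over all genes tested. Groups did not overlap for 3 of the 5 members (2 higher, 1 lower), against 31.7% of all genes tested. The summed level of 5 plasma cell markers was 335 to 376 CPM in the control and 387 to 492 CPM in the Pdap1-deficient libraries. *Tnfrsf17*, 1 of the 5, had no more than 4 counts. Of the 4 markers tested 1 was called higher and 3 did not pass, beside the shares of all genes given above. Groups did not overlap for 1 marker that was higher and 1 that was lower. The part of this list in the differences of the members was not tested.

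*Batf* was at 112, 122 and 123 CPM in control mice 1, 2 and 3 with LPS-IL-4. In Pdap1-deficient mice 1, 2 and 3 it was at 75.2, 49.7 and 62.5 CPM. Every Pdap1-deficient library lay below every control library, with mouse 2 the lowest. The log2 fold change was −0.94 (SE 0.15, 95% interval −1.26 to −0.61; edgeR adjusted p = 0.00875). Without mouse 2, which had the highest myeloid markers, it was −0.78 (adjusted p = 0.000149). The change was between −1.11 and −0.78 when each library was left out in turn, and the call was lost without control mouse 2 (adjusted p = 0.0697) or control mouse 3 (adjusted p = 0.0732).

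*Jdp2* was at 0.906, 1.17 and 0.789 CPM in the control libraries with LPS-IL-4, from 9 to 13 counts each. In the Pdap1-deficient libraries it was at 6.92, 5.59 and 5.39 CPM, from 51 to 92 counts. The 3 Pdap1-deficient libraries were close to each other and far above the controls. The log2 fold change was 2.63 (SE 0.27, 95% interval 2.02 to 3.23; edgeR adjusted p = 0.00101), which ranked 21st of the 15074 genes by p and passed under all 14 alternatives in which the gene could be tested. The libraries of Pdap1-deficient mouse 2, which had the highest myeloid markers, were at 5.59 and 5.78 CPM of *Jdp2* with LPS-IL-4 and LPS-BAFF-TGFβ. The part of these markers in the *Jdp2* difference was not tested.

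Within a library, the ratio of *Batf* to *Jdp2* reads needs no scaling between libraries. With LPS-IL-4 there were 124, 104 and 156 *Batf* reads per *Jdp2* read in the controls and 10.9, 8.89 and 11.6 in the Pdap1-deficient libraries. With LPS-BAFF-TGFβ there were 72.9, 89.7 and 102 in the controls and 8.83, 12.2 and 10 in the Pdap1-deficient libraries. The genotypes did not overlap in either stimulation (2-sided exact permutation p = 0.1 in each, the smallest possible). The ratio is made of 2 members that each separate the genotypes in opposite directions, and is no separate evidence.

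**Figure D2:**
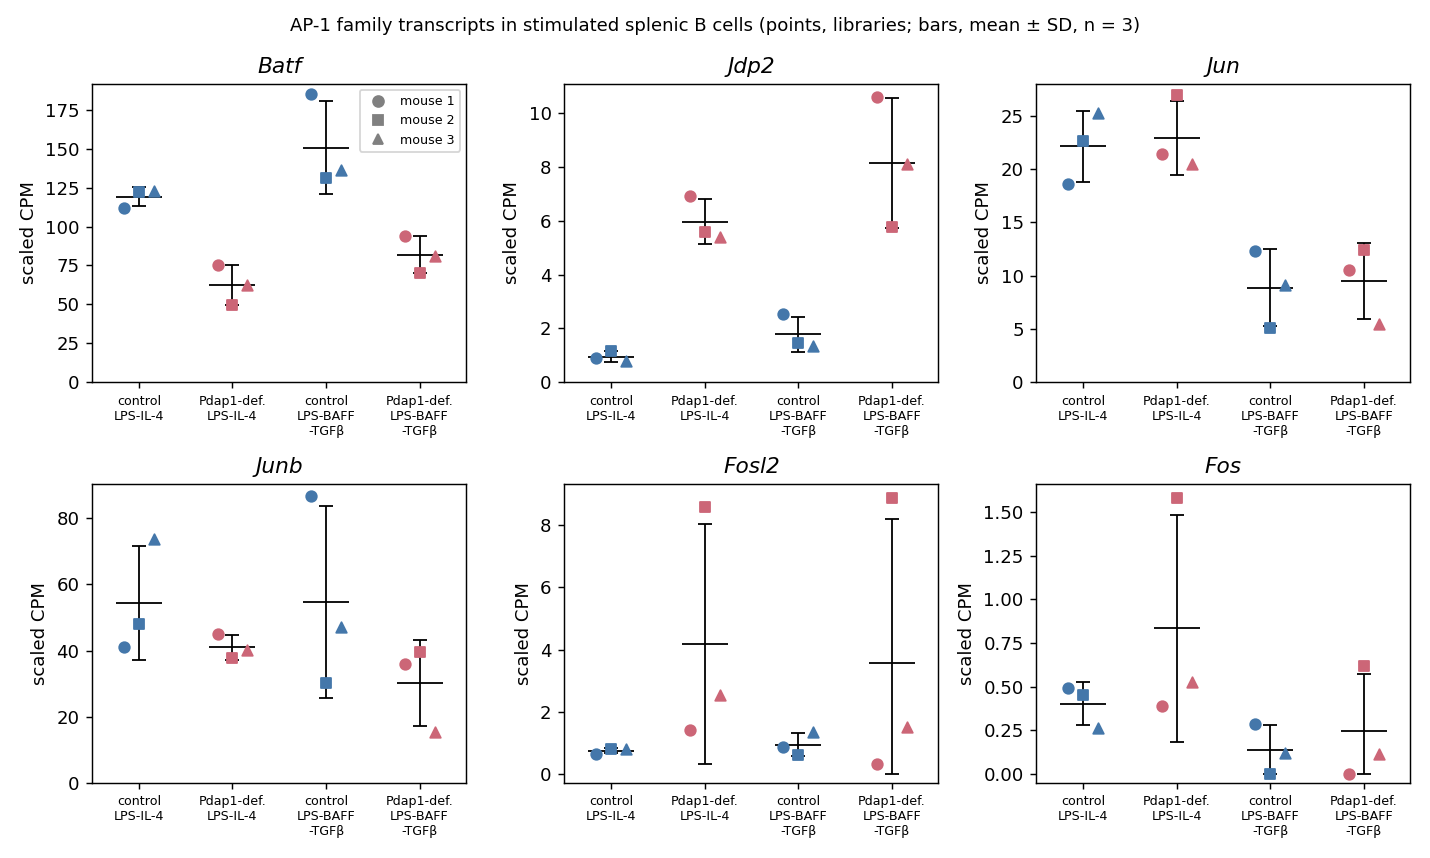
CPM (linear axis) of *Batf*, *Jdp2*, *Jun*, *Junb*, *Fosl2* and *Fos* in the 12 libraries by group; points are libraries, symbols the mouse, horizontal lines the mean and error bars the SD (n = 3, drawn no lower than 0). *Batf* is lower and *Jdp2* higher in each Pdap1-deficient library than in any control library of the same stimulation, *Jun* is lower with LPS-BAFF-TGFβ in both genotypes, and *Fosl2* and *Fos* are highest in Pdap1-deficient mouse 2.

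*Jun*, the founding *Jun* protein and a partner of BATF, was at 18.6, 22.6 and 25.2 CPM in the controls and at 21.4, 26.9 and 20.5 CPM in the Pdap1-deficient libraries with LPS-IL-4. The genotypes overlapped, with a log2 difference of 0.04 (SE 0.15, 95% interval −0.29 to 0.38; edgeR adjusted p = 0.888). *Junb*, a *Jun* protein that is also a partner of BATF, was at 41.1, 48.0 and 73.8 CPM in the controls and at 45.0, 37.6 and 40.3 CPM in the Pdap1-deficient libraries. Here control mouse 3 was high and the rest overlapped, with a log2 difference of −0.41 (SE 0.20, 95% interval −0.86 to 0.04; adjusted p = 0.247).

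*Fosl2*, which encodes the *Fos* protein Fra-2, was at 0.659, 0.809 and 0.789 CPM in the controls with LPS-IL-4. In the Pdap1-deficient libraries it was at 1.40, 8.57 and 2.54 CPM. The groups did not overlap, but the difference came mostly from mouse 2. The log2 fold change was 2.47 (SE 0.69) and did not pass with edgeR (adjusted p = 0.0828), while it passed with DESeq2 (2.43, adjusted p = 0.00352); without mouse 2 it was 1.35 (edgeR adjusted p = 0.0597). The summed myeloid markers moved with it, at 6.77, 317 and 33.7 CPM in the same 3 libraries against 5.22 to 13.7 CPM in the controls, with 4, 8 and 7 of the 8 markers detected. The T cell markers were at 2.10, 24.9 and 2.43 CPM and the erythroid markers at 9.73, 20.3 and 23.7 CPM in these libraries. The part of these lists in the difference was not tested.

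**Figure D3:**
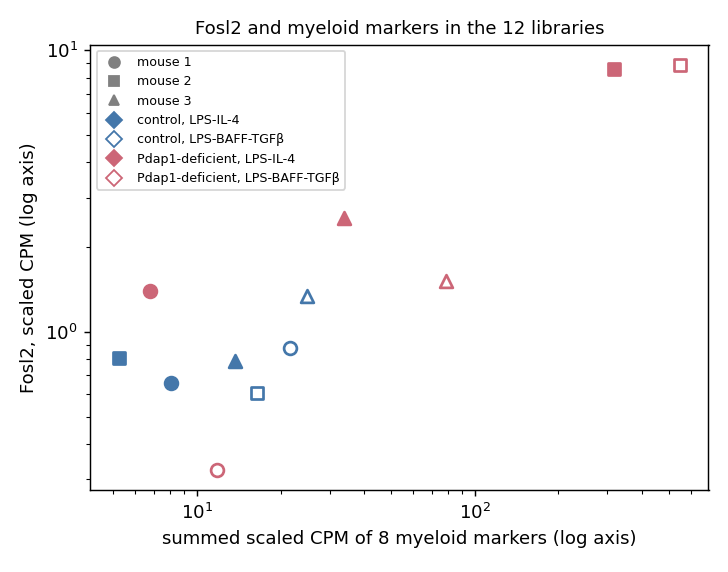
*Fosl2* level (CPM, log axis) against the summed level of 8 myeloid markers (CPM, log axis) in the 12 libraries; colours mark the genotype, fill the stimulation and symbols the mouse. The 2 libraries of Pdap1-deficient mouse 2 are at 8.57 and 8.88 CPM of *Fosl2* with 317 and 550 CPM of the markers, while the other 10 libraries are at 0.323 to 2.54 CPM with 5.22 to 79.0 CPM.

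The remaining members had few counts. *Fos*, the founding *Fos* protein, had 6, 5 and 3 counts in the controls and 5, 26 and 5 counts in the Pdap1-deficient libraries with LPS-IL-4, the highest again in mouse 2, whose myeloid, T cell and erythroid markers are given above. *Fosl1*, which encodes Fra-1, had 7, 5 and 2 counts in the controls and 14, 9 and 11 in the Pdap1-deficient libraries, but 57.2% of its exon bases are shared with the antisense gene *Ccdc85b* and the strand setting of the counting is not given in the sources used here. *Batf3*, a close relative of *Batf*, had between 2 and 6 counts in the controls and between 3 and 13 in the Pdap1-deficient libraries. *Fosb* had between 0 and 3 counts in all 6 libraries. *Jund* had 1 count in the whole data set, and 52.6% of its exon bases overlap the antisense gene *Gm11175*, which had 0 counts. Whether the counting left out reads of *Jund* could not be checked from the sources used here, and its count is not read as a low level of expression. Smaller overlaps with antisense genes are annotated for *Junb* (173 bases, with *Prdx2*), *Jun* (232 bases, with *Junos*) and *Jdp2* (165 bases, with *Gm47863*).

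The second comparison asked the same of cells switching to IgG2b. With LPS-BAFF-TGFβ, *Jdp2* rose 4.33-fold in Pdap1-deficient cells, and *Batf* stood at 54.2% of its control mean without passing the test. Of the 5 members tested 1 was called, higher, where 0.462% of the 14079 genes tested were called (0.455% higher and 0.00710% lower). The median log2 fold change was 0.06 over the 5 members and 0.01 over all genes tested. Groups did not overlap for 2 of the 5 (1 higher, 1 lower), against 18.6% of all genes tested.

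*Batf* was at 185, 131 and 136 CPM in control mice 1, 2 and 3. In the Pdap1-deficient libraries it was at 94.0, 70.4 and 81.1 CPM. Each of these was below each control, and the deepest library, of control mouse 1, was the highest. The log2 fold change was −0.88 (SE 0.16, 95% interval −1.24 to −0.51) with an edgeR adjusted p of 0.0692, while DESeq2 gave −0.89 with an adjusted p of 0.000395. Without control mouse 1 it was −0.71 and passed with edgeR (adjusted p = 0.0119). The adjusted p was between 1.36e-05 and 0.361 over 16 alternatives and passed in 7 of them.

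*Jdp2* was at 2.54, 1.46 and 1.34 CPM in the controls with LPS-BAFF-TGFβ, from 160, 12 and 11 counts. In the Pdap1-deficient libraries it was at 10.6, 5.78 and 8.09 CPM, from 66, 28 and 69 counts. The lowest Pdap1-deficient library had more than the highest control. The log2 fold change was 2.11 (SE 0.34, 95% interval 1.35 to 2.88; edgeR adjusted p = 0.0325, DESeq2 adjusted p = 0.000110). The edgeR call was lost when any library except that of control mouse 1 was left out (adjusted p between 0.0729 and 0.183), and with both control mouse 1 and Pdap1-deficient mouse 2 left out it was 2.72 (adjusted p = 0.000255).

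*Jun* was at 12.3, 5.11 and 9.13 CPM in the controls and at 10.5, 12.4 and 5.51 CPM in the Pdap1-deficient libraries with LPS-BAFF-TGFβ. The libraries were interleaved, with a log2 difference of 0.06 (SE 0.38; edgeR adjusted p = 0.968). *Junb* was at 86.8, 30.2 and 47.1 CPM in the controls and at 36.0, 39.4 and 15.4 CPM in the Pdap1-deficient libraries. The spread within each genotype was wide, and the log2 difference of −0.87 did not pass (SE 0.54, 95% interval −2.26 to 0.52; edgeR adjusted p = 0.583). *Fosl2* was at 0.874, 0.608 and 1.34 CPM in the controls and at 0.323, 8.88 and 1.52 CPM in the Pdap1-deficient libraries, and again mouse 2 was the high one. Its log2 difference was 1.86 (SE 1.05; adjusted p = 0.550) with all libraries and 0.07 without mouse 2, and the summed myeloid markers in these 3 libraries were 11.8, 550 and 79.0 CPM. Their part was not tested here either.

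**Figure D4:**
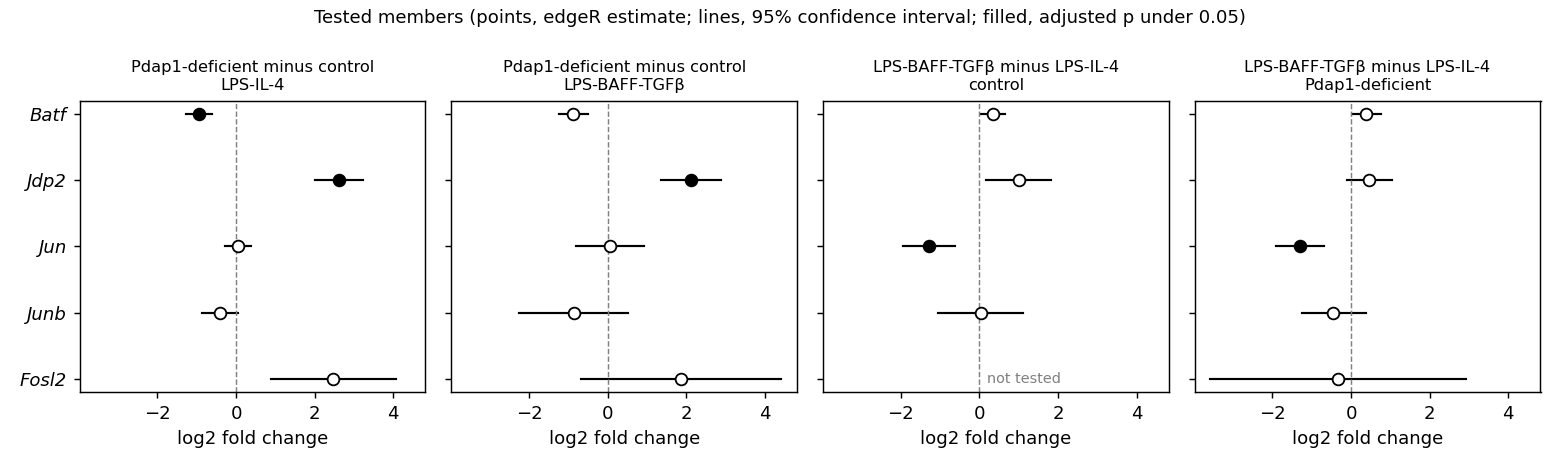
Log2 fold changes of the 5 tested members in the 4 comparisons (points, edgeR estimate; lines, 95% interval; filled points, adjusted p under 0.05; dashed line, no difference). *Batf* is at −0.94 and −0.88 and *Jdp2* at 2.63 and 2.11 in the genotype comparisons, while *Jun* is at −1.28 and −1.30 in the stimulation comparisons. *Fosl2* had too few counts to be tested in the control comparison of stimulations.

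The difference between the 2 genotype effects was tested with an interaction term of genotype and stimulation in a fit of the 12 libraries. For *Batf* this term was 0.04 on the log2 scale (SE 0.23, 95% interval −0.46 to 0.54; edgeR adjusted p = 1). For *Jdp2* it was −0.53 (SE 0.44, 95% interval −1.47 to 0.41; adjusted p = 0.983). None of the 5 members passed, and edgeR called 0 of the 15794 genes (0%), with 755 at an unadjusted p under 0.05 and 6 calls by DESeq2. Differences between the stimulations that lie within these intervals were not resolved.

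The comparison of the stimulations asked whether the family differs between the cultures within a genotype. Cells of both genotypes had less *Jun* when cultured with LPS-BAFF-TGFβ, with no overlap between the stimulations in either, as was also the case for 37.8% of all genes tested in control and 29.1% in Pdap1-deficient cells. In control cells the log2 fold change of *Jun* was −1.28 (SE 0.29, 95% interval −1.94 to −0.62; edgeR adjusted p = 0.0178). In Pdap1-deficient cells it was −1.30 (SE 0.27, 95% interval −1.92 to −0.68; edgeR adjusted p = 0.0154). *Jun* was the 1 member called of 4 tested in control cells, where 19.3% of 14882 genes were called (9.33% lower), and the 1 member called of 5 tested in Pdap1-deficient cells, where 11.5% of 14617 genes were called (5.89% lower). With so many genes called in these comparisons, 1 of 4 and 1 of 5 are near the background. The median log2 fold changes of the members were 0.19 in control and −0.33 in Pdap1-deficient cells, against 0.03 and −0.0025 over all genes. The control call was lost without the LPS-IL-4 library of mouse 2 or 3 or the LPS-BAFF-TGFβ library of mouse 3 (edgeR adjusted p = 0.0645, 0.0704 and 0.0603), and the Pdap1-deficient call without the LPS-BAFF-TGFβ library of mouse 1 (adjusted p = 0.0593). Marker genes of other cells moved with the stimulation too. The summed level of 6 dendritic cell markers, of which *Clec9a* was at 0 throughout, was between 22.6 and 33.8 CPM in the LPS-IL-4 and between 75.6 and 144 CPM in the LPS-BAFF-TGFβ libraries. The 5 plasma cell markers summed to 335 to 492 CPM in the former and 106 to 153 CPM in the latter, and the part of either list in the stimulation differences was not tested.

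*Batf* did not pass the test between stimulations in either genotype. In control cells it was 0.35 higher on the log2 scale with LPS-BAFF-TGFβ (SE 0.14; edgeR adjusted p = 0.118), and the lowest of these libraries, at 131 CPM, was above the highest LPS-IL-4 library, at 123 CPM. This difference was 0.18 without the LPS-BAFF-TGFβ library of control mouse 1 (adjusted p = 0.0744) and 0.14 without both libraries of that mouse (adjusted p = 0.277), while with offsets from length and GC content it was 0.26 and passed (adjusted p = 0.0328). In Pdap1-deficient cells it was 0.39 higher (SE 0.16; adjusted p = 0.178), and the libraries overlapped. Since the 2 cultures of a mouse share the animal, a second fit took the mouse as a block, and the *Batf* difference in Pdap1-deficient cells was then 0.40 and passed (SE 0.08; edgeR adjusted p = 0.00143), being higher with LPS-BAFF-TGFβ in 3 of 3 mice. *Jdp2* was 1 higher on that scale in control cells (SE 0.36; adjusted p = 0.0926) and 0.46 higher in Pdap1-deficient cells (SE 0.25; adjusted p = 0.328) with LPS-BAFF-TGFβ, and passed in neither. *Junb* did not pass in either genotype, at 0.03 in control (SE 0.43; adjusted p = 0.972) and −0.45 in Pdap1-deficient cells (SE 0.34; adjusted p = 0.512).

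The members below the filter had few counts with LPS-BAFF-TGFβ too. *Fos* had 18, 0 and 1 counts in the controls and 0, 3 and 1 in the Pdap1-deficient libraries. *Batf3* had 9, 4 and 0 counts and 0, 1 and 3 counts in the same order, *Fosl1* had 18, 1 and 2 and 1, 2 and 1, and *Fosb* had 27, 3 and 3 and 2, 0 and 1. In each case the largest count is that of control mouse 1, whose library is the deepest, and the other counts are too low for a comparison of the genotypes.

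The genes next to *Batf* and *Jdp2* were examined in a window from 100 kb before *Fos* to 100 kb after *Batf*, which holds 13 features of the table. Of these 4 could be tested in each stimulation, *Jdp2* and *Batf* with opposite signs and 2 others. *Tmed10*, a cargo receptor of the early secretory pathway, differed by −0.04 in the LPS-IL-4 and by −0.11 in the LPS-BAFF-TGFβ cultures on the log2 scale (edgeR adjusted p = 0.872 and 0.761). *Flvcr2*, a membrane transporter, had −0.17 and 0.03 (adjusted p = 0.764 and 0.977). The neighbours that could be tested thus did not pass in either direction.

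IRF4 and IRF8, the partners of BATF on composite elements, did not pass in either genotype comparison with edgeR or DESeq2. *Irf4* was at 309, 287 and 294 CPM in the controls and at 379, 322 and 400 CPM in the Pdap1-deficient libraries with LPS-IL-4, where the groups did not overlap but the log2 difference of 0.30 did not pass (SE 0.11; edgeR adjusted p = 0.15). *Irf8* was at 370, 367 and 406 CPM and at 386, 401 and 366 CPM in the same order. With LPS-BAFF-TGFβ against LPS-IL-4, *Irf8* fell, with log2 changes of −0.37 in control and −0.50 in Pdap1-deficient cells (edgeR adjusted p = 0.0489 and 0.0163), and *Irf4* rose by 0.35 in control cells (adjusted p = 0.0357) and differed by 0.01 in Pdap1-deficient cells (adjusted p = 0.983). The term for the difference between these 2 *Irf4* changes was −0.34 and did not pass (adjusted p = 0.983).

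Of 17 other bZIP genes that can dimerise with AP-1 or ATF factors, 13 were tested in each genotype comparison, and with LPS-IL-4 3 rose, 0 fell and 10 did not pass, where 2.79% of all genes tested were called higher and 2.12% lower. *Bach1*, a repressor that pairs with small *Maf* proteins, rose by 0.85 (SE 0.12; edgeR adjusted p = 0.00576), *Nfe2l1*, an activator of proteasome genes, by 0.63 (SE 0.09; adjusted p = 0.00649) and *Ddit3*, which encodes the stress factor CHOP, by 0.73 (SE 0.18; adjusted p = 0.0454). With LPS-BAFF-TGFβ edgeR called 0 of the 13, where 0.462% of all genes were called. At an unadjusted edgeR p under 0.05 were 9 of the 13, against 10.6% of all genes. DESeq2 called 2 of the 13 with LPS-BAFF-TGFβ, *Nfe2l1* (0.72, adjusted p = 0.0124) and *Atf3* (1.06, adjusted p = 0.0222), where it called 0.983% of all genes. With LPS-IL-4 DESeq2 called 4 of them, where it called 8.90% of all genes. These were *Bach1*, *Nfe2l1*, *Ddit3* and *Atf3* (0.70, DESeq2 adjusted p = 0.0230). The list medians in the 2 stimulations were 0.30 and 0.34, against 0.02 and 0.01 over all genes. Between the stimulations the largest change was that of *Nfil3*, a bZIP repressor, which had log2 fold changes of −4.72 in control and −3.79 in Pdap1-deficient cells with LPS-BAFF-TGFβ (adjusted p = 9.23e-07 and 9.29e-06). Of the same 13 genes, 2 rose and 4 fell in control cells and 0 rose and 5 fell in Pdap1-deficient cells, where 19.3% and 11.5% of all genes were called. *Atf3*, a stress-induced ATF factor, fell in both genotypes, with changes of −1.39 and −1.06 (adjusted p = 0.00428 and 0.0130). In control cells *Mafg*, which encodes a small *Maf* protein, fell by 0.72 (adjusted p = 0.00343), while *Bach2*, a repressor known for its role in B cells, rose by 0.53 (adjusted p = 0.0119). In Pdap1-deficient cells these 2 had changes of −0.43 and 0.45 that missed the threshold (adjusted p = 0.0719 and 0.340). They passed there in 7 and 4 of 16 alternatives. The terms for the difference between the genotypes were 0.29 and −0.08 and did not pass (edgeR adjusted p = 0.983 and 0.999). *Bach1* and *Ddit3* fell in Pdap1-deficient cells, with changes of −0.64 and −0.61 (adjusted p = 0.0222 and 0.0342), and were at −0.39 and −0.40 in control cells (adjusted p = 0.105 and 0.201). Their terms for the difference between the genotypes, −0.25 and −0.20, did not pass either (edgeR adjusted p = 0.983 and 0.989).

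The kinases and targets upstream and around AP-1 were read in the same way. Of 9 MAP kinase genes edgeR called 0 in either genotype comparison, where 4.92% (LPS-IL-4) and 0.462% (LPS-BAFF-TGFβ) of all genes were called. An unadjusted edgeR p under 0.05 was found for 2 in the LPS-IL-4 and 1 in the LPS-BAFF-TGFβ cultures, against 23.8% and 10.6% of all genes. DESeq2 called 2 of the 9 MAP kinase genes with LPS-IL-4, where it called 8.90% of all genes. These were the MAP kinase kinase genes *Map2k1* (−0.39, adjusted p = 0.0302) and *Map2k2* (−0.45, adjusted p = 0.0430). Of 4 serum response factor genes, which drive *Fos* and other early genes, edgeR and DESeq2 called 0 in both genotype comparisons. At an unadjusted edgeR p under 0.05 were 3 and 0 of them. The shares of all genes are those given for the MAP kinases, among them 23.8% and 10.6% at the unadjusted p. For DESeq2 with LPS-BAFF-TGFβ the share was 0.983%. Of the 6 MAP kinase phosphatases, which switch these kinases off, *Dusp5* rose by 1 on the log2 scale in Pdap1-deficient cells with LPS-IL-4 (SE 0.18; edgeR adjusted p = 0.0161). The other 5 did not pass, of which *Dusp4* passed with DESeq2 (0.80, adjusted p = 0.00839). Over all genes tested with LPS-IL-4, edgeR called 2.79% higher and DESeq2 called 4.10% higher. Of 12 immediate early genes 10 were tested with LPS-IL-4, beside the same shares of all genes. With edgeR 2 rose, the zinc finger factor *Klf6* by 0.97 (SE 0.12; adjusted p = 0.00309) and the antiproliferative gene *Btg2* by 0.67 (SE 0.16; adjusted p = 0.0463). DESeq2 called these and *Ier3*, a survival gene of the early response (2.16, adjusted p = 0.0114). With edgeR *Ier3* did not pass (2.21, SE 0.86, adjusted p = 0.195), from means of 1.12 CPM in control and 5.17 CPM in Pdap1-deficient cells. Its change was between 0.77 and 2.63 over 14 alternatives and passed in 2 of them. The part of the myeloid markers in it was not tested. With LPS-BAFF-TGFβ edgeR called 0 of the 5 phosphatases and 0 of the 8 immediate early genes tested, where 0.462% of all genes were called. At an unadjusted edgeR p under 0.05 were 0 and 2 of these, against 10.6% of all genes. DESeq2 called 1 gene of the 2 lists there, *Klf6* (0.78, adjusted p = 0.00879), where it called 0.749% of all genes higher.

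Between the stimulations these genes moved in both directions. *Mapk3*, which encodes ERK1, rose with LPS-BAFF-TGFβ by 1.35 in control and 1.15 in Pdap1-deficient cells (edgeR adjusted p = 7.7e-05 and 0.00123), and *Map2k1*, which encodes its activator MEK1, fell, with changes of −0.74 and −0.39 (adjusted p = 0.000352 and 0.0383). *Map2k4*, a kinase of the JNK branch, was at −0.41 and −0.26 and passed in control cells (adjusted p = 0.0142 and 0.162). *Elk3*, a serum response cofactor, rose by 2.34 and 1.84 (adjusted p = 1.64e-05 and 0.000141), and *Elk4*, of the same family, was at 0.51 and 0.28 and passed in control cells (adjusted p = 0.0378 and 0.286). In Pdap1-deficient cells *Map2k4* and *Elk4* passed in 2 and 4 of 16 alternatives. Their terms for the difference between the genotypes were 0.16 and −0.23 and did not pass (edgeR adjusted p = 0.983 and 0.989). Among the phosphatases *Dusp4* rose by 2.34 and 1.36, while *Dusp10* fell, with changes of −2.42 and −2.52, as did *Dusp5*, with −3.75 and −3.71, each with an adjusted p under the threshold in both genotypes. *Dusp6* was at 1.10 and 0.59 and passed in control cells (adjusted p = 0.00180 and 0.0520). It passed in Pdap1-deficient cells in 8 of 16 alternatives. Its term for the difference between the genotypes was −0.52 and did not pass (edgeR adjusted p = 0.983). Of the 10 immediate early genes tested, 1 rose and 4 fell in control cells and 0 rose and 3 fell in Pdap1-deficient cells, where 19.3% and 11.5% of all genes were called. The riser was the orphan receptor gene *Nr4a1*, at 1.86 in control and 0.41 in Pdap1-deficient cells (adjusted p = 0.000581 and 0.573). The difference between its 2 changes, −1.45, did not pass (adjusted p = 0.980). *Zfp36*, which encodes an mRNA decay factor, was at −1.22 and −1.20 and passed in control cells (adjusted p = 0.000786 and 0.0762). In Pdap1-deficient cells it passed in 7 of 16 alternatives, and its term for the difference between the genotypes was 0.01. *Klf2*, a quiescence factor, fell, with changes of −1.46 and −1.93 (adjusted p = 0.0343 and 0.00416), as did *Egr1*, with −0.99 and −1.59 (adjusted p = 0.0469 and 0.0217), and *Nr4a3*, a relative of *Nr4a1*, with −2 and −1.86 (adjusted p = 0.00535 and 0.0145). All of these are measured at 48 h, long after the first induction of early genes.

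Last, the genes whose profile over the 12 libraries was most like that of *Batf* were found by the root mean square difference of log2 CPM, each gene centred on its own mean. The 5 closest of 15794 genes were *Dctpp1*, a nucleotide pyrophosphatase gene, at 0.222, *Polr2e*, a subunit of RNA polymerases, at 0.225, *Rbm38*, which encodes an RNA-binding protein, at 0.231, *1110038B12Rik* at 0.233 and *Pmm1*, a phosphomannomutase gene, at 0.234. The 1st percentile of all genes was 0.317 and the median 0.626. Their log2 fold changes in Pdap1-deficient cells with LPS-IL-4 were −0.98, −0.61, −0.70, −0.84 and −0.47. With LPS-BAFF-TGFβ they were −0.90, −0.75, −0.54, −0.88 and −0.58. These genes were chosen for following *Batf* over the same libraries. Their lower levels in Pdap1-deficient cells come with that choice, and their edgeR tests are no separate evidence. The likeness is a description over libraries that share genotype, stimulation and depth, and none of the 5 is a member of the AP-1 family.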

How the data were processed

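RNA was measured in 12 libraries of splenic B cells, 3 mice per genotype and stimulation, harvested at 48 h. The authors depleted ribosomal RNA, trimmed reads with Trim Galore 0.6.1, mapped them to GRCm38 with STAR 2.6 and counted them per gene with HTSeq 0.9.1, as the submitters' processing notes name these tools; the deposited counts are not normalized, and the annotation release and the strand setting are not given in the sources used here. The labels name a stranded mRNA kit and the study a total RNA kit. A second table of normalized counts was not used. Symbols, positions and exon lengths were taken from GENCODE M21 (GRCm38), which named all 55536 features.

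Comparisons used the robust quasi-likelihood F test of edgeR 4.0.16 (R 4.3.3) after filterByExpr and TMM, at an adjusted p under 0.05, without a mouse block. The 2 stimulations share mice by the series description; deviations from the group means correlated at −0.18, 0.34 and −0.02 for control and 0.58, 0.62 and 0.29 for Pdap1-deficient mice. Over all genes tested, the median biological coefficient of variation was between 17.2% and 20.9%. This median need not hold for members with few counts, such as *Jdp2* with 9 to 13 counts in the LPS-IL-4 controls. No library was a copy of another. Alternatives were DESeq2 1.42.0 (Wald test), its size factors in edgeR, no filter or at least 10 counts in every library, each library left out, all 12 libraries fitted together, blocks by replicate number, thinning to 4579793 counts, and offsets from gene length and GC content with and without the block. Leaving out the animals that stand apart (control mouse 1 and Pdap1-deficient mouse 2) was added after seeing the data. The steps were tested on simulated data. Promoters were from RefSeq (GRCm38.p6), which held no entry for *Fosl1*. Tables were made with Python 3.11.15, pandas 2.3.3 and scipy 1.17.1.

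Named are the 10 members, *Pdap1*, the list genes called in a genotype comparison, up to 4 per list called in each stimulation comparison by smallest adjusted p, genes called by DESeq2 alone in a genotype comparison where they are beside a count (chosen after their values were seen), the 5 genes most like *Batf*, and, chosen after their values were seen, the neighbours of *Batf* on chromosome 12. The members and lists were chosen with earlier results of these data known. Of the genes examined, 1 is not reported here.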

Additional observations from a re-analysis of the deposited data

How the results depend on the processing

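The number of members called moved as follows. With LPS-IL-4 the genotype comparison called 2, and 1 (*Batf*) with at least 10 counts in every library, a filter that removed *Jdp2*; it called 1 to 3 when each library was left out. With LPS-BAFF-TGFβ it called 1, but 2 (*Batf* and *Jdp2*) with DESeq2, without a filter, with all 12 libraries in 1 fit, with the length and GC offset and without control mouse 1 and Pdap1-deficient mouse 2, and 0 to 2 when each library was left out. The stimulation comparison in control cells called 1, and 2 (*Batf* and *Jun*) with the offset, and 0 to 1 when each library was left out. That in Pdap1-deficient cells also called 0 to 1. Except for the filter, the cause of these changes was not tested. The genotype by stimulation term called 0 members under every alternative run.

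The replicate number as a block gave 2 calls (*Batf* and *Jdp2*) for genotype with LPS-BAFF-TGFβ, where *Batf* was then at −0.87 (edgeR adjusted p = 0.0385), and for genotype with LPS-IL-4 it added *Fosl2* (2.17, adjusted p = 0.00894) to *Batf* and *Jdp2*; the genotypes share only a number. In the stimulation comparison of Pdap1-deficient cells, where the number is the mouse, the block gave 2 calls (*Batf* and *Jun*), as did the block with the offset. It changed no call of a member in the other comparisons.

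Of 394 values of single members under an alternative, 335 kept their direction and side of the threshold and 34 reversed, all of values that had not passed. For *Jun* the genotype difference with LPS-BAFF-TGFβ was −0.01 without a filter and −0.00039 after thinning. The *Jun* term of genotype by stimulation was 0.0039 with DESeq2, 0.16 after thinning, 0.06 with the offset, 0.04 with offset and block and 0.30 without the 2 animals, where that of *Jdp2* was 0.06. For *Junb* the stimulation difference in control cells was −0.02 with DESeq2, −0.07 with the replicate block, −0.19 with the offset, −0.20 with both and −0.64 without control mouse 1. When each library was left out in turn, the ranges were −0.08 to 0.13 and −0.20 to 0.38 for *Jun* by genotype with LPS-IL-4 and LPS-BAFF-TGFβ, −0.48 to 0.31 for *Junb* between stimulations in control cells and −2.11 to 0.78 for *Fosl2* in Pdap1-deficient cells. For the genotype by stimulation term they were −0.10 to 0.22 for *Batf*, −0.28 to 0.32 for *Jun*, −0.77 to 0.02 for *Junb* and −2.40 to 0.49 for *Fosl2*. *Fos*, *Fosb*, *Fosl1*, *Batf3* and *Jund* had too few counts for the filter in every comparison with all libraries, and none of them passed in the alternatives that tested them.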
